A study of Rattus norvegicus with 6 samples.

Results

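Tetraspanins are membrane proteins that gather integrins, proteases and receptors into patches of the cell surface and of endosomes. In the oligodendrocyte lineage CD9, CD81, TSPAN2 and TSPAN3 are known in myelinating cells. A subgroup, the TspanC8 proteins, carries the protease ADAM10 to the surface, where ADAM10 cuts Notch receptors and other membrane proteins. CD63, CD9 and CD81 mark extracellular vesicles, and CD37 and CD53 are proteins of leukocytes, a class that includes microglia. The genes described here are the 27 rows, of 32662 in the deposited table, whose symbol is Tspan followed by a number or is Cd9, Cd37, Cd53, Cd63, Cd81, Cd82 or Cd151. All 27 symbols are in the RefSeq gene table for rat. The choice used symbols and no measured value.

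The RNA came from primary oligodendrocyte precursor cells of the cerebral cortex of Sprague-Dawley rats aged 1 to 2 days. Control cells (3 libraries) were compared with cells given preformed fibrils of human alpha-synuclein (3 libraries) over 72 hours. Both groups were collected as precursor cells from mixed glia in 20% serum and grown with the mitogens PDGF and FGF (10 ng/ml each) and 2% B27 over 4 to 5 days, without a genetic change named in the labels. The labels name no vehicle for the controls. They also do not state that the 3 libraries of a group are separate cultures, and the p-values below therefore reflect only how these libraries vary, which may be technical variation.

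Values are FPKM, fragment counts divided by transcript length and by the mapped fragments of the library, so levels can be set side by side between genes. Replicate 1 of both groups stood apart from the other libraries. Mitochondrially encoded genes held 80.3% of the FPKM total in control replicate 1 and 75.6% in fibril replicate 1, against 12% to 40.1% elsewhere. Fragment numbers are unknown. The steps between low values put the FPKM of a single fragment, relative to control replicate 2, at 4.05 and 6.98 in replicate 1 of the control and fibril groups and at 0.817 to 1.96 in the remaining libraries, so low values are least precise in replicate 1. All 9 precursor markers in the table were above 0 in every library, from 3.22 FPKM (Cspg4 in fibril replicate 1) to 733 FPKM (Olig2 in control replicate 1). Markers of leukocytes other than myeloid cells (7 genes) were listed at 0 throughout, and the 5 endothelial markers in the table summed to at most 0.407 FPKM. Transcripts listed as markers of other neural cells were present: 10 astrocyte markers summed to 94.8 to 234 FPKM and 8 neuron markers to 127 to 607 FPKM per library. Levels within the lists were uneven. Aldoc held 69.7 of 94.8 FPKM in fibril replicate 1, Slc1a3 reached 60.9 FPKM and Aldh1l1 at most 0.513 FPKM. Map2 held 454 of 607 FPKM in control replicate 1, Dcx reached 92.7 FPKM and Stmn2 at most 4.77 FPKM. The sums therefore do not give the number of such cells. Of 9 astrocyte markers tested, 7 had negative and 2 positive differences between fibril and control libraries (median -1.40 on the log2 scale). By limma 0 of the 9 passed, and 6 of the 9 had an unadjusted p under 0.05, against 433 of the 10766 genes tested. Among the 6 was Gfap, named because of its values, which was higher with fibrils (0.643, 0.37 and 0.733 against 3.69, 6.20 and 24.8 FPKM). Its difference was 2.60. Gfap reached 1 FPKM only in fibril libraries, and Slc4a4, another of the 6, only in control libraries. The minimum for testing (1 FPKM in at least 3 libraries) therefore fixed the direction of both. The part of these markers of other neural cells in the tetraspanin values was not tested.

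Of the 27 tetraspanin genes, 24 were above 0 in at least 1 library and 17 reached 1 FPKM in at least 3 libraries, the minimum set for testing. Together the 27 genes held 877 to 1606 FPKM per library, or 0.260% to 0.363% of the FPKM of genes not encoded by mitochondria. The 5 most abundant members of a library held 68.0% to 76.8% of that sum.

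Tspan3, whose protein forms a complex with claudin-11 in oligodendrocytes, had the highest median level (229.9 FPKM). It had 299, 203 and 171 FPKM in control replicates 1, 2 and 3 and 257, 188 and 391 FPKM in the fibril libraries. Tspan7, an X-linked gene for intellectual disability that acts in neuronal synapses, came next with a median of 211 FPKM. It had 208, 226 and 262 FPKM in control libraries and 200.4, 145 and 214 FPKM in fibril libraries. Tspan3 was above Tspan7 in 4 of 6 libraries, so their order was not fixed across libraries. Cd81, a co-receptor gene first known from lymphocytes, followed with 77.5, 149 and 184 FPKM against 95.5, 108 and 202 FPKM, below Tspan7 in 6 of 6 libraries.

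A middle group had medians of 51.2 to 95.2 FPKM: Tspan31, the endosomal genes Cd63 and Tspan6, Cd9, the calcium channel partner Tspan13, and Tspan2. Their ranges overlapped and no neighbours within the group kept 1 order in all 6 libraries. Tspan12, a co-receptor in Norrin and Frizzled signalling, had a median of 26.9 FPKM. The range of Tspan12 over the 6 libraries did not overlap that of Tspan5, the next gene (12.2 FPKM); no other neighbours in the order were so separated. Below these lay Tspan11 (8.34), Tspan14 (5.64), the platelet tetraspanin gene Tspan9 (4.36), Tspan15 (4.19), Tspan33 (3.55) and Cd82 (1.25 FPKM), the last known as a metastasis suppressor.

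**Figure D1:**
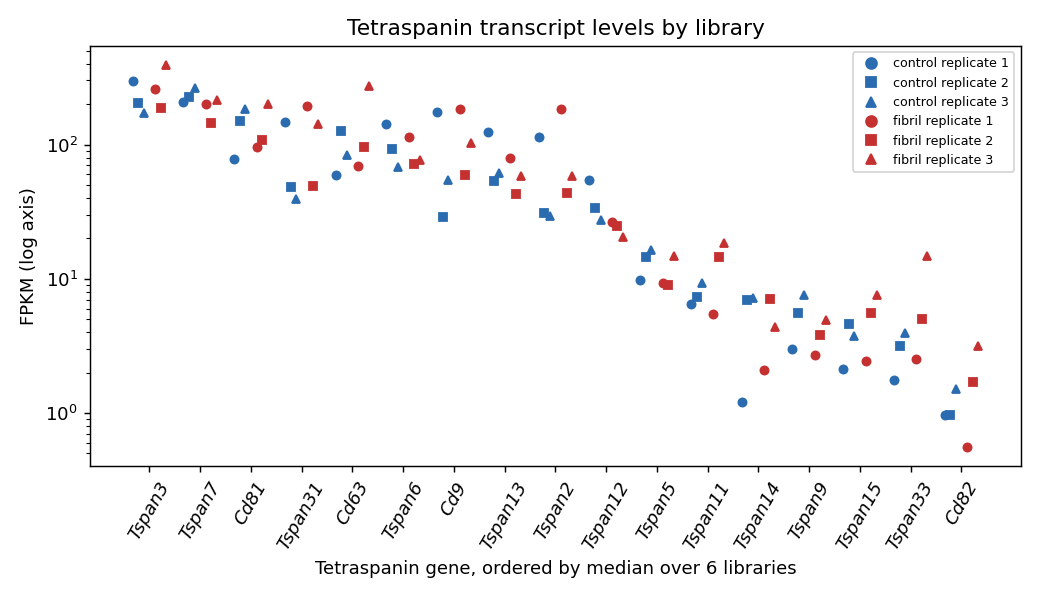
FPKM (log axis) of the 17 tested tetraspanin genes in each of the 6 libraries, ordered by median, with control libraries in blue and fibril libraries in red and a marker shape per replicate number. Medians run from 229.9 FPKM for Tspan3 to 1.25 FPKM for Cd82, and Tspan12 and Tspan5 are the only neighbours whose ranges do not overlap.

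The other 10 members were low or listed at 0. The TspanC8 gene Tspan17 had 0.543, 0.555 and 0.227 FPKM in control libraries and 0.941, 0.376 and 2.01 FPKM in fibril libraries. Tspan18, known as a partner of the calcium channel ORAI1, had 0.153, 0.150 and 0.184 FPKM against 0, 0.0980 and 0.0737 FPKM; its groups did not overlap, but it lay below the level set for testing. The epithelial genes Tspan1 and Tspan8 were at most 0.124 and 0.173 FPKM. Tspan10, a TspanC8 gene of pigmented cells, and the haematopoietic gene Tspan32 were listed at 0 in all 6 libraries.

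Cd151, which encodes a partner of laminin-binding integrins, was listed at 0 in 5 libraries and at 0.359 FPKM in control replicate 1. Its neighbour Tspan4, 1460 bases away on chromosome 1, was listed at 0 in all 6. Polr2l, an RNA polymerase subunit gene that every cell uses, has the same listed interval as Tspan4 (214452126 to 214473741) and was also at 0 in all 6 libraries. Hprt1 and Rps6, other genes of all cells, were at 0 as well. A listed 0 can therefore be a failed estimate, and no fold is given against one.

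Promoter sequences were set beside these levels; the motifs, the CpG count and the sequences shown were chosen after the levels were seen. The windows are the 250 bases before each RefSeq start (build GRCr8, which is not stated to be the build of the deposited table). Sequences were found for 24 of the 27 members, of which 16 had been tested. The number of CpG dinucleotides had a median of 20.5 (range 8 to 39) in the 16 tested members and of 6 (range 2 to 21) in the 8 others. The median was 5 over 33469 windows. These windows were not limited to genes that reached the level for testing, so the sets are unlike. The sequences shown are those of Tspan2 and Cd9, known in myelinating cells, of the abundant Tspan7, of Tspan12, the tested member with the fewest CpG, and of the leukocyte member Cd53. Each is printed 5′ to 3′ on the strand of the gene, and capitals mark matches to the motifs named after them.
Tspan2 (chr2:192866030-192866279, plus strand): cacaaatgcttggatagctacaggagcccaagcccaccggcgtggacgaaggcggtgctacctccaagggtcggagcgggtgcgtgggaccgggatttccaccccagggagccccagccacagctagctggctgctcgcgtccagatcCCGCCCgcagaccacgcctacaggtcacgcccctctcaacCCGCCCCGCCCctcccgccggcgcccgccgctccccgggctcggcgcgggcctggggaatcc
Cd9 (chr4:159975359-159975608, minus strand): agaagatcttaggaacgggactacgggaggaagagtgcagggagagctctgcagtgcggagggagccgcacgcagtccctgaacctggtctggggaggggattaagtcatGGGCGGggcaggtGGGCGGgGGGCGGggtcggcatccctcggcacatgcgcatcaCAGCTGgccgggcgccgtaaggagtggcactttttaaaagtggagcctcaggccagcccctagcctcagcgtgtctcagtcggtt
Tspan7 (chrX:14978628-14978877, minus strand): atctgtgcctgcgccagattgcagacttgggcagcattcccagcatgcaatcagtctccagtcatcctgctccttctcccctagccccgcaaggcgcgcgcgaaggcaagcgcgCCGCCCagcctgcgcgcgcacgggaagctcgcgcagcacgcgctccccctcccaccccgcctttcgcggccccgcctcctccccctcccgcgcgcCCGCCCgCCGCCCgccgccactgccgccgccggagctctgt
Tspan12 (chr4:51355031-51355280, minus strand): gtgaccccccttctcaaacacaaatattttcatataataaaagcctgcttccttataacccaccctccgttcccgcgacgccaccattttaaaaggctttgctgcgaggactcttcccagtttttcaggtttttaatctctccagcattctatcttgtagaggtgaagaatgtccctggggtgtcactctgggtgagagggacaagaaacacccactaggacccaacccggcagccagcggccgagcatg
Cd53 (chr2:197087897-197088146, minus strand): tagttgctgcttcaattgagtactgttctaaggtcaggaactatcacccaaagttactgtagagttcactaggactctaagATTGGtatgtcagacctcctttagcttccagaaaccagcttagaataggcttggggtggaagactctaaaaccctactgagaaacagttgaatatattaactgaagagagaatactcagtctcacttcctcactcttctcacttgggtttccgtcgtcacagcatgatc

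The motifs searched, on both strands, were the GC box GGGCGG, the CCAAT box CCAAT, the TATA box TATAAA, the E-box CAGCTG and AACAAT, a core of Sox sites. The GC box was found in 10 of the 16 tested members and in 30.5% of all windows, which again were not limited to tested genes. Tspan2, Cd9 and Tspan7 each had 3 GC boxes, and the Cd9 window also held the E-box. CAGCTG was found in 5 of 16 tested members (12% of all windows) and CCAAT in 6 (34% of all windows). TATAAA and AACAAT were found in 0 of the 24 member windows, against 12.9% and 10.3% of all windows. The Tspan12 window held none of these motifs and 8 CpG. The Cd53 window held 2 CpG and 1 CCAAT box, read on the other strand as ATTGG.

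**Figure D2:**
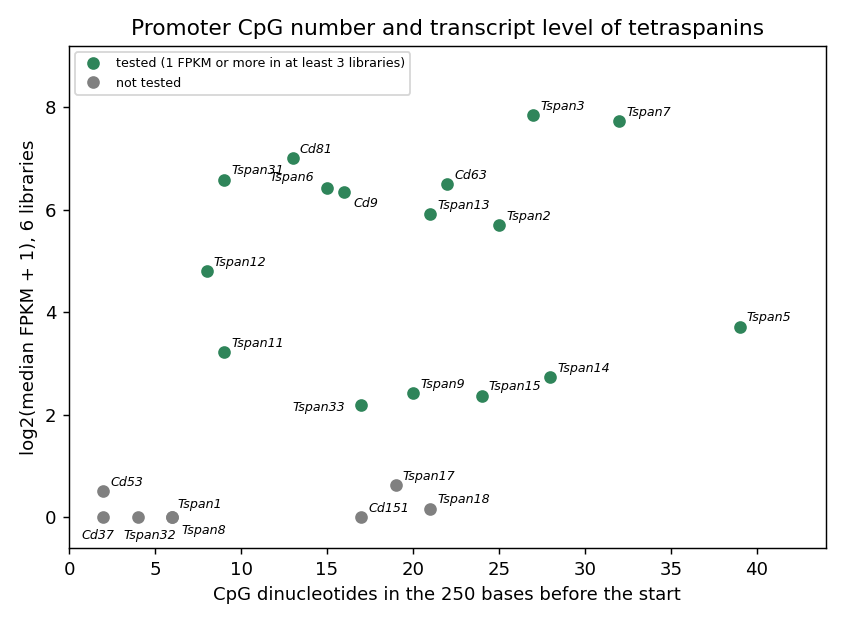
Number of CpG dinucleotides in the 250 bases before the start against log2(median FPKM + 1) over 6 libraries, for the 24 tetraspanin genes with a RefSeq window (green tested, grey not tested). Members listed near 0 include both CpG-poor windows (Cd37 and Cd53 with 2) and CpG-rich ones (Tspan18 with 21), and Tspan5, with the most CpG (39), had a median of 12.2 FPKM.

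The comparison of fibril with control libraries asked whether exposure of precursor cells to alpha-synuclein aggregates altered the tetraspanin transcripts. No tetraspanin gene passed the test. Differences are given on the log2(FPKM + 1) scale, which understates changes of low genes. By limma over 10766 genes, 0 of 17 members were called higher and 0 lower at an adjusted p of 0.05, and the background was 0% of genes in either direction. With the replicate number as a block 0 of 17 were called, where 0.111% of genes were called higher and 0% lower. At an unadjusted p under 0.05 the count was 0 of 17, against 2.21% of all genes higher and 1.81% lower. Adjusted p ran from 0.96 to 1.00. Of the 17 differences 9 were positive and 8 negative, between -0.62 (Tspan12) and 0.86 (Tspan33).

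The median difference of the 17 members was 0.28, beside -0.04 over all genes tested. Within replicate numbers 1, 2 and 3 the members' medians were -0.06, -0.11 and 0.73, and the all-gene medians were 0.003, -0.04 and -0.05. The positive median rested on fibril replicate 3: without that library it was -0.06. Without control replicate 3 it was 0.29, and with any other library left out it ran from 0.16 to 0.25. Scaling to equal totals without mitochondrial genes moved the all-gene median to -0.30 and the members' median to -0.02.

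**Figure D3:**
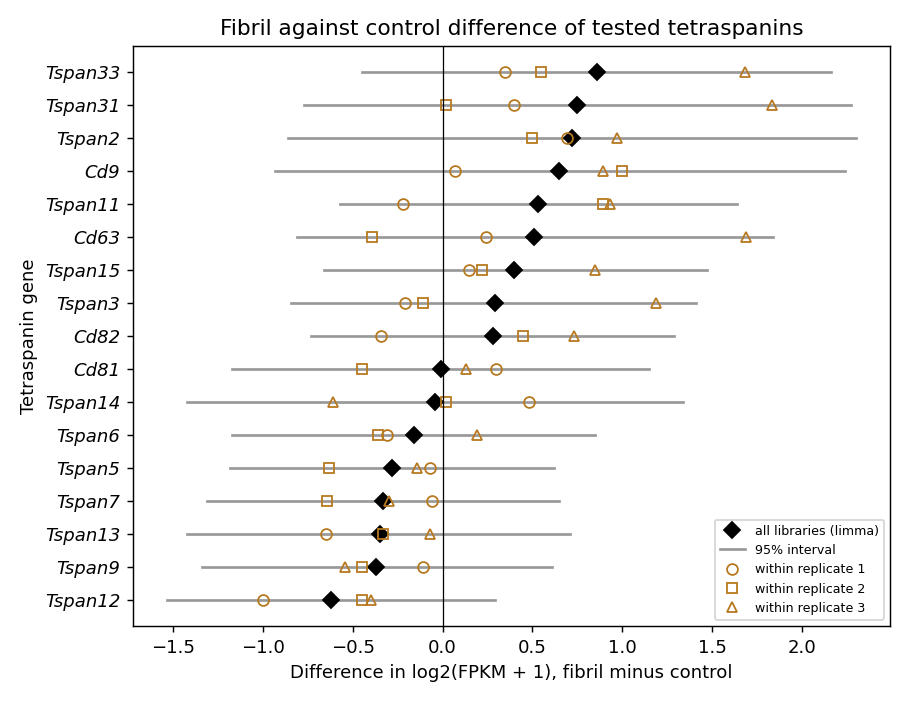
Difference in log2(FPKM + 1), fibril minus control, of the 17 tested tetraspanin genes: black diamonds and grey lines give the limma estimate from all 6 libraries with its 95% interval, and open markers the difference within each replicate number. All 17 intervals cross 0, from Tspan12 at -0.62 to Tspan33 at 0.86, and for Tspan31, Cd63, Tspan3 and Tspan33 the marker of replicate 3 lies far to the right.

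Among the tetraspanins of myelinating cells, Tspan2 and Cd9 had the higher value in the fibril library for 3 of 3 replicate numbers. Tspan2 (chromosome 2, 205160404 to 205202764 in the deposited table) is enriched in oligodendrocytes. It had 114, 30.8 and 29.3 FPKM in control replicates 1, 2 and 3 and 183, 43.8 and 58.5 FPKM in the fibril libraries. The groups overlapped because control replicate 1 lay above fibril replicates 2 and 3. The log2 difference was 0.72 (95% interval -0.86 to 2.30; limma adjusted p = 0.96), and ran from 0.11 to 1.35 when 1 library was left out. With the replicate number as a block the interval was 0.05 to 1.39, the unadjusted p 0.039 and the adjusted p 0.497. It was the only member of 17 under an unadjusted 0.05 there, a share of 5.88%, where all genes gave 4.87% higher and 4.97% lower. Scaled without mitochondrial genes the Tspan2 difference was 0.42 and the all-gene median -0.30. With the block the members under an unadjusted 0.05 were then Tspan12, Tspan13 and Tspan7 (3 of 17), all lower. With the block and quantile normalization they were Tspan12, Tspan33 and Tspan7 (3 of 17). The share of all genes under 0.05 is not given here for these settings.

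Cd9 (chromosome 4, 157977161 to 158010166), known in myelin and in gamete fusion, had 174, 29.1 and 54.4 FPKM in control libraries and 183, 59.1 and 102 FPKM in fibril libraries. Its difference was near 0 in replicate 1 (0.07) and larger in replicates 2 and 3 (1.00 and 0.89). The log2 difference was 0.65 (95% interval -0.93 to 2.24; limma adjusted p = 0.96), was 0.35 when scaled without mitochondrial genes, and ran from 0.08 to 1.35 when 1 library was left out. Tspan3 was lower with fibrils in replicates 1 and 2 (-0.21 and -0.11) and higher in replicate 3 (1.19); its log2 difference was 0.29, and -0.02 when scaled without mitochondrial genes. Cd81 showed no side in these libraries, with a difference of -0.01 and an interval from -1.17 to 1.15, and values within replicates of 0.30, -0.45 and 0.13. Cd82 had 0.972, 0.97 and 1.52 FPKM against 0.559, 1.69 and 3.17 FPKM, again without separation of the groups.

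Myelin genes of the same libraries give the scale of these values. Mbp, encoding myelin basic protein, had 68.3, 58.5 and 68.4 FPKM in control libraries and 886, 992 and 1168 FPKM in fibril libraries, a log2 difference of 3.94. Mag, encoding myelin-associated glycoprotein, had 4.94, 2.33 and 7.64 FPKM against 41.1, 41.8 and 152 FPKM, a difference of 3.55. The limma adjusted p was 0.078 for Mbp and 0.228 for Mag. These 2 are among the largest: the differences of the 9 oligodendrocyte markers tested ran from 0.55 (Mog) to 3.94, with a median of 2.65. Cnp (1.72), Myrf (1.39), Ugt8 (1.39) and Mog lay inside the 95% intervals of Tspan2 and Cd9; the contrast between the genes was not tested. Summed over 12 oligodendrocyte markers, the level was 336 to 842 FPKM in control libraries and 2225 to 4091 FPKM with fibrils. The 9 precursor markers in the table summed to 1663 to 2683 FPKM in controls and to 1234 to 1470 FPKM with fibrils. Taken gene by gene, 0 of these 9 passed by limma. The groups were separate for 0 of the 9 in either direction, where all genes gave 4.24% higher and 5.30% lower. Their differences were negative for 8 and positive for 1 (Sox10, 0.32), with a median of -0.84. In bulk RNA, fewer or more cells of a type and less or more RNA per cell cannot be told apart. The part of these markers in the Tspan2 and Cd9 values was not tested.

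**Figure D4:**
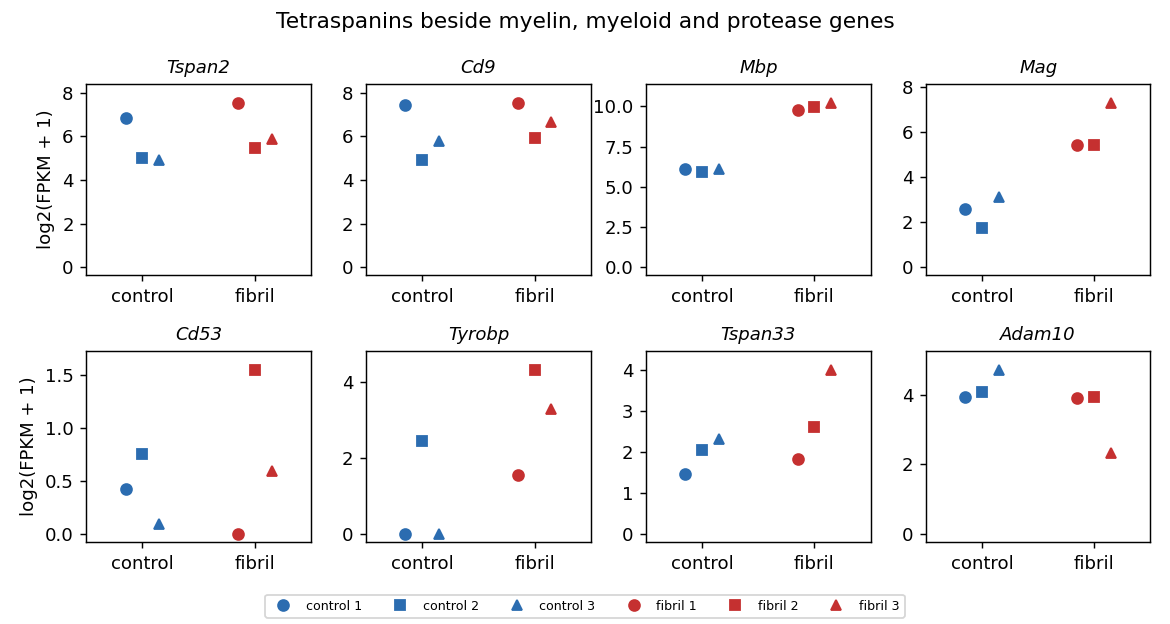
log2(FPKM + 1) in each library (control in blue and fibril in red, 1 marker shape per replicate number) for Tspan2, Cd9, the myelin genes Mbp and Mag, the leukocyte tetraspanin Cd53 with the myeloid gene Tyrobp, and Tspan33 with the protease gene Adam10. The groups are separate for Mbp, Mag and Adam10 and overlap for Tspan2, Cd9, Cd53, Tyrobp and Tspan33.

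Tspan12 (chromosome 4, 48852826 to 48928372) was the only tested member whose groups did not overlap. It had 54.3, 33.9 and 27.3 FPKM in control libraries and 26.6, 24.6 and 20.4 FPKM in fibril libraries, so that the highest fibril library lay just under the lowest control. The log2 difference was -0.62 (95% interval -1.53 to 0.29; limma adjusted p = 0.96). Separation in the lower direction was found in 1 of 17 members (5.88%) and in 5.30% of all genes tested, and in the higher direction in 0 members and 4.24% of genes. The share of members was near that of all genes.

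Read within replicate numbers, 5 of 17 members (29.4%) were higher with fibrils in 3 of 3 and 5 (29.4%) lower, against 16.9% and 19.3% of all genes. The correlations between libraries did not favour these numbers over crossed ones for replicates 2 and 3. Those higher were Tspan2, Cd9, Tspan31, Tspan15 and Tspan33, and those lower were Tspan12, Tspan13, Tspan5, Tspan7 and Tspan9. The lower group held both members linked to neurons and calcium channels that could be tested. Tspan7 differed by -0.33 (95% interval -1.31 to 0.65). Tspan13 had 125, 53.9 and 61.0 FPKM against 78.9, 42.6 and 57.9 FPKM and differed by -0.35 (95% interval -1.42 to 0.71). Both had a limma adjusted p of 0.964. Scaled without mitochondrial genes, Tspan7 differed by -0.64 and Tspan13 by -0.66, where the all-gene median was -0.30. The groups of Tspan7 then did not overlap, in the direction in which 7.06% of all genes were separate. When 1 library was left out, Tspan7 ran from -0.44 to -0.16 and Tspan13 from -0.58 to 0.01. The 8 neuron markers summed to 286 to 607 FPKM in control libraries and 127 to 412 FPKM in fibril libraries, with Map2 the highest of them in each. Of these 8 markers 7 had negative differences and 1 a positive one, with a median of -0.61. The groups did not overlap for 3 of the 8 in the lower direction, where all genes gave 5.30%. Within replicate numbers 1, 2 and 3 the markers' medians were -0.78, -0.002 and -0.97, and Tspan7 differed by -0.06, -0.64 and -0.30. In replicate 2 the sum of the markers was 286 FPKM in the control and 309 FPKM in the fibril library. The part of these markers in the Tspan7 and Tspan13 values was not tested.

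Of 6 TspanC8 genes 4 were tested, and their differences had both signs. Tspan5, the most abundant, had 9.87, 14.5 and 16.5 FPKM in control libraries and 9.37, 9.06 and 14.9 FPKM in fibril libraries, a difference of -0.28. Tspan14 had 1.21, 6.90 and 7.21 FPKM against 2.09, 7.01 and 4.38 FPKM (-0.04). Tspan15 had 2.13, 4.61 and 3.77 FPKM against 2.46, 5.52 and 7.58 FPKM (0.40). Tspan33 had the largest positive difference of all members. Its values were 1.77, 3.15 and 3.94 FPKM in control libraries and 2.54, 5.06 and 14.8 FPKM in fibril libraries. Control replicates 2 and 3 lay above fibril replicate 1, so the groups overlapped. The log2 difference was 0.86 (95% interval -0.45 to 2.16; limma adjusted p = 0.96), and 0.27 without fibril replicate 3.

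Adam10, the protease that these proteins carry, had 14.3, 15.8 and 24.8 FPKM in control libraries and 14.0, 14.1 and 4.05 FPKM in fibril libraries. Its groups did not overlap, but replicates 1 and 2 differed by only -0.03 and -0.15 and replicate 3 by -2.35; the log2 difference was -0.85 (limma adjusted p = 0.96). Adam17, a related protease, had 5.97, 6.15 and 7.54 FPKM against 7.88, 6.56 and 5.47 FPKM. Notch1, a receptor that ADAM10 cuts, had 5.88, 12.3 and 22.1 FPKM against 5.96, 14.7 and 5.05 FPKM. Of 17 listed ADAM10 substrates and Notch genes 11 were tested; 0 passed in either direction by limma with or without the block (0 and 2 of 11 at an unadjusted p under 0.05, against 433 and 1059 of the 10766 genes), 8 differences were negative, and the median was -0.46, or -0.72 when scaled without mitochondrial genes. In 3 of 3 replicate numbers 2 of the 11 were higher and 6 lower, against 16.9% and 19.3% of all genes. App, encoding the amyloid precursor protein, was among those higher (54.1, 69.7 and 125 against 105, 90.0 and 186 FPKM). The Notch ligand gene Dll1 was among those lower (6.05, 15.4 and 20.1 against 5.33, 11.6 and 8.35 FPKM). The groups of both genes overlapped (limma adjusted p = 0.96 for each). Scaled without mitochondrial genes, App differed by 0.31 and Dll1 by -0.85.

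Cd63 and Tspan6 stand for endosomes and extracellular vesicles. Cd63, of late endosomes and exosomes, had 59.0, 126 and 83.3 FPKM in control libraries and 69.7, 95.9 and 271 FPKM in fibril libraries. Fibril replicate 3 was the highest library and the other fibril libraries lay within the control range. Its difference of 0.51 (95% interval -0.81 to 1.84) became -0.06 without fibril replicate 3. Tspan6 had 141, 92.3 and 67.8 FPKM against 114, 71.8 and 77.2 FPKM (-0.16). Among 27 tested vesicle genes of 29 listed, 0 passed in either direction by limma with or without the block (2 of 27 at an unadjusted p under 0.05 in each, against 433 and 1059 of 10766 genes), 18 differences were positive and the median was 0.12, or -0.17 when scaled without mitochondrial genes. The ESCRT adaptor gene Pdcd6ip (11.8, 13.3 and 17.7 against 15.4, 15.8 and 15 FPKM) and the syntenin gene Sdcbp (25.9, 52.9 and 42.3 against 25.5, 37.7 and 34.0 FPKM) overlapped between groups. So did Tsg101, an ESCRT subunit (120.3, 53.2 and 46.0 against 145, 54.0 and 94.3 FPKM), and Chmp2a (38.6, 84.3 and 54.0 against 56.5, 83.7 and 230.2 FPKM). The secretory GTPase gene Rab27b and the sphingomyelinase gene Smpd3 were at most 2.69 and 10.5 FPKM. The endosomal GTPase gene Rab31 had the smallest p among vesicle genes at a mean of 5 FPKM or more: 93.6, 91.0 and 106 FPKM in controls against 45.3, 44.1 and 41.4 FPKM with fibrils (difference -1.13, SE 0.36; limma adjusted p = 0.96, and 0.331 with the block). Anxa2, an annexin gene named after its values were seen, had 0, 0.658 and 0.0895 against 3.75, 2.86 and 2.58 FPKM (limma adjusted p = 0.5). It was the only 1 of the 27 tested vesicle genes with separate groups in the higher direction, where all genes gave 4.24%. Anxa2 reached 1 FPKM only in fibril libraries, so its entry into the test already fixed that separation, which is not a result. Rab31 was the only vesicle gene with separate groups in the lower direction, where all genes gave 5.30%.

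Partners of tetraspanins at the cell surface were read from a list of 35 symbols, of which 16 were tested. By limma 0 passed in either direction, with or without the block (2 and 3 of 16 at an unadjusted p under 0.05, against 433 and 1059 of 10766 genes), and the median was -0.03, or -0.32 when scaled without mitochondrial genes. The groups did not overlap for Cldn11 and Cd44 in the higher direction and for Adam10, Lrp5 and Ptgfrn in the lower, where all genes gave 4.24% and 5.30%; Cd44 and Lrp5 are named because of these values. Cldn11, the myelin claudin that binds TSPAN3, had 1.58, 1.10 and 1.80 FPKM in control libraries and 9.28, 14.5 and 22.4 FPKM in fibril libraries (difference 2.65, SE 0.43; limma adjusted p = 0.224, and 0.0624 with the block). Its partner Tspan3 overlapped between the groups, as given above. Ptgfrn, a direct partner of CD9 and CD81, had 2.14, 3.05 and 4.11 FPKM against 1.33, 1.88 and 1.30 FPKM (-0.69, SE 0.38). Igsf8, a related partner, had 2.40, 11.5 and 19.9 FPKM against 6.91, 9.24 and 22.4 FPKM. The integrin gene Itgb1 had 75.0, 58.1 and 79.9 FPKM against 80.7, 52.0 and 72.7 FPKM, while Itga6 was 1.13 FPKM or less in every library. Hbegf, the growth factor gene whose product CD9 binds, was at most 2.69 FPKM. Among tetraspanins named otherwise, Rom1 reached 2.30 FPKM and was tested (difference 0.59), and Upk1b was listed at 0 throughout.

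The leukocyte tetraspanins were near the floor. Cd53 had 0.347, 0.693 and 0.0708 FPKM in control libraries and 0, 1.92 and 0.510 FPKM in fibril libraries, highest in replicate 2 of both groups. Cd37 had 0.116 FPKM in control replicate 2 and was listed at 0 elsewhere. The 14 microglia and macrophage markers in the table summed to 9.06, 50.6 and 2.14 FPKM in control libraries and 14.8, 67.7 and 40.4 FPKM in fibril libraries, also highest in replicate 2 of both groups. Tyrobp had 0, 4.48 and 0 FPKM against 1.93, 18.7 and 8.76 FPKM, and Aif1 had 1.01, 4.40 and 0.222 against 0, 9.94 and 7.95 FPKM. Other myeloid markers differed from these. In replicate 2 C1qa was at 10.3 FPKM in the control and 2.93 FPKM in the fibril library. C1qb was there at 8.36 and 2.07 FPKM, C1qc at 7.44 and 1.68 FPKM, and Cx3cr1 at 0.8 and 0 FPKM. In replicate 3 C1qa was at 0.613 and 3.23 FPKM, C1qb at 0.118 and 3.67 FPKM, and C1qc at 0.117 and 2.24 FPKM. The differences of the 3 were -0.05, 0.15 and -0.04. Cd14, named because of its values, had 0, 0.260 and 0.0708 against 2.39, 10.6 and 3.23 FPKM (difference 2.32, limma adjusted p = 0.5). It was the only 1 of 8 tested with separate groups, where all genes gave 4.24% higher. Cd14 reached 1 FPKM only in fibril libraries, so its entry into the test already fixed that separation, which is not a result. Of 8 myeloid markers tested, 6 had positive and 2 negative differences. Itgam was not analysed here. Csf1r reached 1.84 FPKM (control replicate 2) and Ptprc 0.427 FPKM at most. Whether Cd53 came from such cells was not tested.

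The remaining tested members were Tspan31, Tspan11 and Tspan9. Tspan31 (chromosome 7, 70349862 to 70355619), known from amplification in sarcomas, has the same listed interval as the cell cycle kinase gene Cdk4, so fragments may be split between them and its level is uncertain. Tspan31 had 146, 47.9 and 39.2 FPKM in control libraries and 192, 48.7 and 142 FPKM in fibril libraries. Its share of the sum of Tspan31 and Cdk4 was 56.7% and 50.9% in replicate 1 of the control and fibril groups, and 14.7% to 21.4% in the other libraries. Tspan11 and Tspan9 are neighbours on chromosome 4, 7815 bases apart. Tspan11 had 6.47, 7.37 and 9.30 FPKM against 5.44, 14.5 and 18.6 FPKM (0.53), and Tspan9 had 3.02, 5.56 and 7.59 FPKM against 2.72, 3.81 and 4.90 FPKM (-0.37). Both 95% intervals included 0 (Tspan11 -0.57 to 1.64, Tspan9 -1.34 to 0.61), and in replicate 1 both genes were lower with fibrils (-0.22 and -0.11). When 1 library was left out, Tspan11 ran from 0.21 to 1.01 and Tspan9 from -0.67 to -0.12.

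Replicate 1 stood apart for many members, a pattern described after the values were seen. It was the highest library of both groups for 6 of 17 members (35.3%, against 24.8% of all genes): Tspan2, Cd9, Tspan31, Tspan13, Tspan6 and Tspan12. Replicate 1 was the lowest of both groups for 7 of 17 (41.2%, against 33.5%): Cd63, Cd81, Tspan9, Tspan11, Tspan14, Tspan15 and Tspan33. Tspan2 in replicate 1 was 3.78 times the mean of replicates 2 and 3 in controls and 3.59 times with fibrils. Cd9 was 4.17 and 2.27 times that mean. After scaling without mitochondrial genes, these ratios were 2.64 and 3.16 for Tspan2 and 2.84 and 2.05 for Cd9. Tspan14 was at the other end, at 0.172 and 0.367 times. The part of the mitochondrial share and of the depth of replicate 1 in these ratios was not tested.

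**Figure D5:**
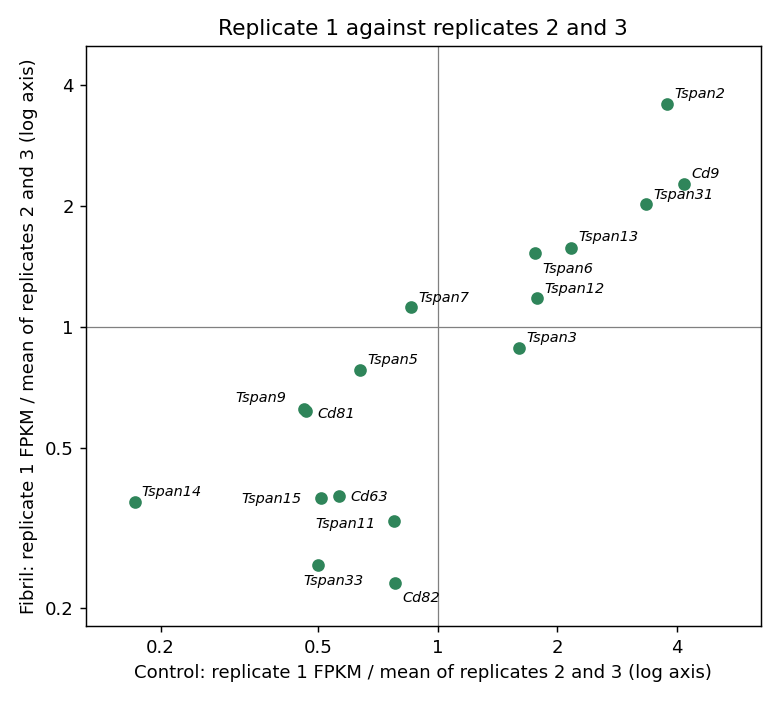
FPKM in replicate 1 divided by the mean of replicates 2 and 3, in the control group (x axis) and the fibril group (y axis), both on log axes, for the 17 tested tetraspanin genes. Tspan2 (3.78 and 3.59), Cd9 (4.17 and 2.27) and Tspan31 lie at the upper right, and Tspan14 (0.172 and 0.367) lies lowest on the x axis.

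With replicates 2 and 3 alone, the groups did not overlap for 7 of 17 members in the higher direction (Cd9, Tspan2, Tspan31, Tspan11, Tspan15, Tspan33 and Cd82) and for 3 in the lower (Tspan12, Tspan7 and Tspan9). Over all genes the shares with 2 libraries a group were 18% higher and 24.2% lower. The median difference of the members was then 0.53, beside -0.06 for all genes, and 0 of 17 passed by limma (smallest adjusted p 0.609, for Cd9).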

How the data were processed

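The authors deposited 1 table of FPKM, 1 column per library, per the file headers; every value column matched 1 sample (0 left over). The submitters' processing notes list Trimmomatic and FastQC. No aligner, quantifier or build is given in the sources used here. The library kit keeps strand, per the labels' protocols; whether the counting used strand is not known. From the FPKM as deposited, log2(FPKM + 1) was computed for 10766 genes that reached 1 FPKM in at least 3 libraries and tested with limma 3.58.1 in R 4.3.3 (mean-variance trend, two-sided, Benjamini-Hochberg over all genes tested, threshold 0.05). An exact permutation test of 3 against 3 libraries cannot go below p = 0.1. The fit left 4 residual degrees of freedom, and 2 with the replicate number as a block. The labels state no pairing. Deviations from group means correlated across genes at 0.747, 0.364 and 0.216 for replicate numbers 1, 2 and 3, above the limit of 0.1 set for pairs. For numbers 2 and 3 the crossed correlations were higher (0.5 for control 3 and fibril 2, 0.433 for control 2 and fibril 3), so readings by replicate number are uncertain for these.

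The members, gene lists and alternatives were chosen with earlier results of these data known. All members are named; of the lists, a preset group of genes, any gene past the threshold and, per list, the 2 smallest p at a mean of 5 FPKM or more. Fragment steps were read against fibril replicate 3, after control replicate 2 gave no clear step. The fit was tested on simulated data. Motifs were searched in RefSeq windows with Python 3.11.15.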

Additional observations from a re-analysis of the deposited data

How the results depend on the processing

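No tetraspanin gene passed under any of 17 alternatives (11 of the analysis and 6 that each left out 1 library). The replicate block gave 12 genes higher over the whole table and changed no tetraspanin call; the block scaled without mitochondrial genes gave 1 higher, and the block with quantile normalization gave 13 higher and 2 lower. Limma without a trend gave 1 higher. The count was 0 to 3 higher when 1 library was left out (3 without fibril replicate 3). Members with separate groups numbered 2 of 24 lower without a filter, where all genes gave 4.70%. Scaled without mitochondrial genes (with or without the block) they numbered 2 of 17 lower, where all genes gave 7.06%. Under quantile normalization (with or without the block) they numbered 1 higher and 2 lower of 17, where all genes gave 4.74% and 4.44%. In replicates 2 and 3 they numbered 7 higher and 3 lower, with the all-gene shares given above. With 1 library left out, separate groups numbered 0 to 4 higher (3 without control replicate 1, where all genes gave 11.4%, and 4 without fibril replicate 1, 10.5%) and 1 to 3 lower (3 without control replicate 1 or fibril replicate 3, where all genes gave 18.7% and 7.24%). Scaled without mitochondrial genes, with or without the block, the list medians were -0.32 for partners, -0.72 for ADAM10 substrates and Notch genes, and -0.17 for vesicle genes. The substrate median ran from -0.53 to -0.13 when 1 library was left out (-0.13 without control replicate 3).

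These uncalled differences changed sign. Tspan14 was 0.02 at a pseudocount of 0.1 and 0.11 under quantile normalization, and Tspan3 was -0.14 under quantile normalization and -0.02 scaled without mitochondrial genes, the last 3 values also with the block. Hbegf was 0.04 under quantile normalization, and Adam17 and Pdcd6ip were -0.26 and -0.17 scaled without mitochondrial genes, each with or without the block. In replicates 2 and 3, Adam17 was -0.16 and Igsf8 -0.07. Leaving out 1 library gave ranges of -0.37 to 0.25 for Cd81, -0.66 to 0.33 for Tspan14, -0.58 to 0.01 for Tspan13, -0.41 to 0.11 for Tspan6, -0.06 to 0.91 for Cd63, -0.06 to 0.65 for Cd82, -0.11 to 0.12 for Adam17, -0.39 to 0.92 for Igsf8, -0.20 to 0.12 for Itgb1 and -0.38 to 0.07 for Hbegf. The cause was not tested. Fragment numbers are unknown, which limits the low members most.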
